A study of Mus musculus with 28 samples.

Results

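The 42 genes described here encode sensors, signalling kinases and repair enzymes of the response to DNA damage in mouse blood cells. The rule that defines them is a list of names and uses no measured value. They fall into 6 roles, with 10 genes of damage signalling, 12 of homologous recombination, 6 of the Fanconi anaemia pathway, 4 of end joining, 7 of base excision and single-strand break repair, and 3 of mismatch or nucleotide excision repair. All 42 passed the low-count filter in both bulk RNA tables, among 15224 genes tested of 35267 listed in the c-Kit table and 13375 tested of 35429 listed in the line table. The single-cell tables list fewer genes. The table of days 1 and 3 lists 9448 genes and 39 of the 42 (Rad51c, Xrcc5 and Lig4 are not listed), and the day 5 table lists 11662 genes and all 42.

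All cells came from c-Kit+ bone marrow cells of C57Bl/6 mice. MOZ-TIF2 cells (n = 2) were transduced with a retrovirus that carries MOZ-TIF2 with a Ty1 tag, a leukaemia fusion protein, sorted on GFP and kept for 4 days in cytokine medium. Differentiated cells (n = 2) carried the empty vector and went through that same culture, and fresh cells (n = 2) were read as isolated. The cell lines carried EYA1 with HOXA9 (sorted on GFP and dTomato) or HOXA9 alone (sorted on GFP), so that HOXA9 was present in every line library. They were replated in methylcellulose for 4 rounds and spent 72 h in 5 µM benzarone, which inhibits EYA phosphatases, or in DMSO. Each of these 4 groups has n = 3. Single-cell RNA was read from replated MOZ-TIF2 cells in 5 µM benzarone on days 1, 3 and 5 and in DMSO on days 1 and 5. Each condition of days 1 and 3 was its own sample, and day 5 was 1 sample whose cells the deposited metadata assign to benzarone or DMSO, so no condition is replicated. The labels do not say whether replicates came from separate animals or cultures, so p-values measure the spread between these samples, which may be technical.

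Library totals were 33010700 to 34463851 counts in MOZ-TIF2 cells, 23656631 to 34260108 in differentiated cells, 12397486 to 15550960 in fresh cells and 26340517 to 34606046 in the lines. Levels are CPM, counts scaled by TMM to a common library size, and a call is an adjusted p under 0.05. Mast cell markers summed to 49.0 and 59.3 CPM in MOZ-TIF2 cells, 58600 and 86960 CPM in differentiated cells and 337 and 372 CPM in fresh cells. Kit, the receptor used to isolate the cells, was at 29.0 and 41.0 CPM in MOZ-TIF2 cells, 4003 and 4269 CPM in differentiated cells and 138 and 181 CPM in fresh cells. Eya1 was at 134 to 171 CPM in benzarone and 201 to 276 CPM in DMSO in the EYA1+HOXA9 line, and each HOXA9 library held 0 or 1 count of it. Hoxa9 was at 1238 to 1646 CPM in benzarone and 314 to 507 CPM in DMSO in the EYA1+HOXA9 line, and at 197 to 221 CPM in benzarone and 180 to 241 CPM in DMSO in the HOXA9 line. In bulk RNA, fewer cells of a type and less RNA per cell cannot be told apart.

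Breaks through both DNA strands activate the kinases ATM, ATR and DNA-PK, which phosphorylate the histone variant H2AX (gene H2afx) on chromatin near the break. MDC1 binds this mark and gathers repair factors, and CHK1 and CHK2 pass the signal to the cell cycle. EYA phosphatases remove the phosphate from a tyrosine of H2AX, which bears on whether a damaged cell repairs or dies. Homologous recombination copies the sister chromatid and therefore works mainly in S and G2 phase, when many of its genes are also transcribed most, whereas end joining rejoins broken ends in any phase. The Fanconi pathway opens crosslinks between strands, and base excision repair replaces damaged single bases such as uracil. In blood, stem cells and progenitors depend on these pathways, and people who lack Fanconi genes develop marrow failure.

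Promoters are shown for 5 members because they carry letters that E2F or NF-Y proteins are known to bind, the activators of many S-phase and cell cycle genes, or because MOZ-TIF2 peaks lie on them. RefSeq (GRCm38.p6) gave the 300 bases around the start, 250 before it and 50 after it, for 33 of the 42 members. Capitals mark matches on either strand to the E2F words TTTCCCGC, TTTGGCGC, TTTCGCGC and TTTGCCGC, to CCAAT and to TTTGAA. Topbp1 (chr9:103305077-103305376, plus strand) has TTTCGCGC on the opposite strand 129 bases before the start, and a peak shared by both Ty1 replicates (chr9:103304952-103305751) covers the whole window. Msh6 (chr17:87974800-87975099, plus strand) has TTTCCCGC 15 bases after the start and a CCAAT on the opposite strand, and a shared peak (chr17:87974952-87975951) covers part of it. Fancm (chr12:65075353-65075652, plus strand) has CCAAT inside a shared peak (chr12:65073452-65075901). Bard1 (chr1:71102923-71103222, minus strand) has TTTCCCGC 209 bases before the start and TTTGAA 242 bases before it. Brca2 (chr5:150522371-150522670, plus strand) has TTTCCCGC on the opposite strand 168 bases before the start.
Topbp1: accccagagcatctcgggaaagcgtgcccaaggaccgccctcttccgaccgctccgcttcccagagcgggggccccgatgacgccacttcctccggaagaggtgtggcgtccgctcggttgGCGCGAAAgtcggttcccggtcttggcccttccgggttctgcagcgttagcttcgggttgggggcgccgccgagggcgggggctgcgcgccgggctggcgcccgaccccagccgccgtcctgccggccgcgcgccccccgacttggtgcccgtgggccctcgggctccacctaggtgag
Msh6: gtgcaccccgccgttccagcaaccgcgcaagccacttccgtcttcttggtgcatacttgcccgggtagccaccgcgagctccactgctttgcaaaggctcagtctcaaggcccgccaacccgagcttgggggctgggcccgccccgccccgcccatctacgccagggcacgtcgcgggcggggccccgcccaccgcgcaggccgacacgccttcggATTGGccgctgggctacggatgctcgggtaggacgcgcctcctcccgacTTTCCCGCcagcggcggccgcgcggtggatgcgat
Fancm: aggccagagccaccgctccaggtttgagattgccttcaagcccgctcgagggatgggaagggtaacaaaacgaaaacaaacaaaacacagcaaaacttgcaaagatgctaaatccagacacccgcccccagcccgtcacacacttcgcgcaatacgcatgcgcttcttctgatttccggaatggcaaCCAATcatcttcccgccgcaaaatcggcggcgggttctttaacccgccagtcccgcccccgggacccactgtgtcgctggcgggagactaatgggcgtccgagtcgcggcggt
Bard1: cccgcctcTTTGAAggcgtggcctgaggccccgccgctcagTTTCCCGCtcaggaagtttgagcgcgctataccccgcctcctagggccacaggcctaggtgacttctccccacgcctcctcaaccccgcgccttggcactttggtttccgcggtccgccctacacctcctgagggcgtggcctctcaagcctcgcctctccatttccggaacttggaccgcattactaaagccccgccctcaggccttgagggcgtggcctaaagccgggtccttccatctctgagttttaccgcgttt
Brca2: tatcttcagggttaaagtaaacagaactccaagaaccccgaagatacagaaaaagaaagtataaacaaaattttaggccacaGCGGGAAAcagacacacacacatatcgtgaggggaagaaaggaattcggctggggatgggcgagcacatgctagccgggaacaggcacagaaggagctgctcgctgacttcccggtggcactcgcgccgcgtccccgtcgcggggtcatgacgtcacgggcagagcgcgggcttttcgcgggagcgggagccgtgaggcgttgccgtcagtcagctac

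An E2F word stood in 8 of the 33 member promoters (24.2%), those of Bard1, Brca2, Chek2, Mdc1, Msh6, Rad51c, Topbp1 and Xrcc6. The share was 4.47% of the 10608 promoters of genes tested in the c-Kit table and 3.29% of 17492 protein-coding promoters. Among 18 promoters of replication genes it was 44.4%, and among 55 promoters of other repair genes 9.09%. CCAAT stood in 19 of 33 member promoters (57.6%), against 43.0% of tested genes. TTTGAA, part of the element that marks many mitosis genes, stood in 1 of 33 (3.03%, Bard1), against 15.0% of tested genes and 71.4% of 21 mitosis promoters. A match is a description of the letters and not of binding. Of the 8 members with an E2F word, 2 were higher and 0 lower in MOZ-TIF2 than in differentiated cells (median 0.54). Of the 25 without one, 9 were higher and 1 lower (median 0.66), and 29.5% of all genes tested were called. Between differentiated and fresh cells, 1 of the 8 was higher and 3 lower (median -0.84), and 2 of the 25 were higher and 13 lower (median -0.98). There 40.7% of all genes tested were called. The shares called among all genes with and without an E2F word were not counted.

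Both replicates of Ty1-tagged MOZ-TIF2 had a shared peak within 5 kb of 12 of the 42 members (28.6%). This was also the share among tested protein-coding genes (3763 of 13139, 28.6%), so the members stood at the background. The 12 were Atm, Atr, Topbp1, Mdc1, H2afx, Fancm, Brip1, Lig4, Parp1, Lig3, Apex1 and Msh6. A peak covered nearly the whole of H2afx (chr9:44334652-44335951, gene 44334715-44336077), and peaks also lay on Parp1 (chr1:180568952-180569401) and Lig3 (chr11:82781202-82781751). Of the 12 members with a peak, 3 were higher and 1 lower in MOZ-TIF2 than in fresh cells (median log2 difference 0.33). Of the 30 without one, 0 were higher and 2 lower (median 0.04), and 23.7% of all genes tested were called. The 3 higher ones, Lig3, Fancm and Mdc1, kept the call in 4, 6 and 2 of 11 other settings. Lig3 and Mdc1 were also called higher in differentiated than in fresh cells (0.61 and 0.78). Against differentiated cells, 3 of the 12 with a peak were higher (median 0.62), and 10 of the 30 without one were higher and 1 lower (median 0.74). In that comparison 29.5% of all genes were called. The shares called among all genes with and without a peak were not counted.

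MOZ-TIF2 cells held more RNA of homologous recombination and Fanconi genes than differentiated cells, and 19 of the 42 repair genes were lower in differentiated than in fresh cells. Against fresh cells few members differed in MOZ-TIF2 cells. Both Ku genes, Xrcc5 and Xrcc6, stood lower than in fresh cells in MOZ-TIF2 cells and also in differentiated cells. Of the 42 members, 6 were called between MOZ-TIF2 and fresh cells (14.3%), 3 higher and 3 lower, against 23.7% of all genes tested. Between MOZ-TIF2 and differentiated cells, 14 were called (33.3%), 13 higher and 1 lower, against 29.5% of all genes. Between differentiated and fresh cells, 22 were called (52.4%), 3 higher and 19 lower, against 40.7% of all genes. The members' median log2 difference in these comparisons was 0.06, 0.65 and -0.83, where the median over all genes lay between -0.03 and 0.03. The comparisons share libraries, so each is given by its own values.

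**Figure D1:**
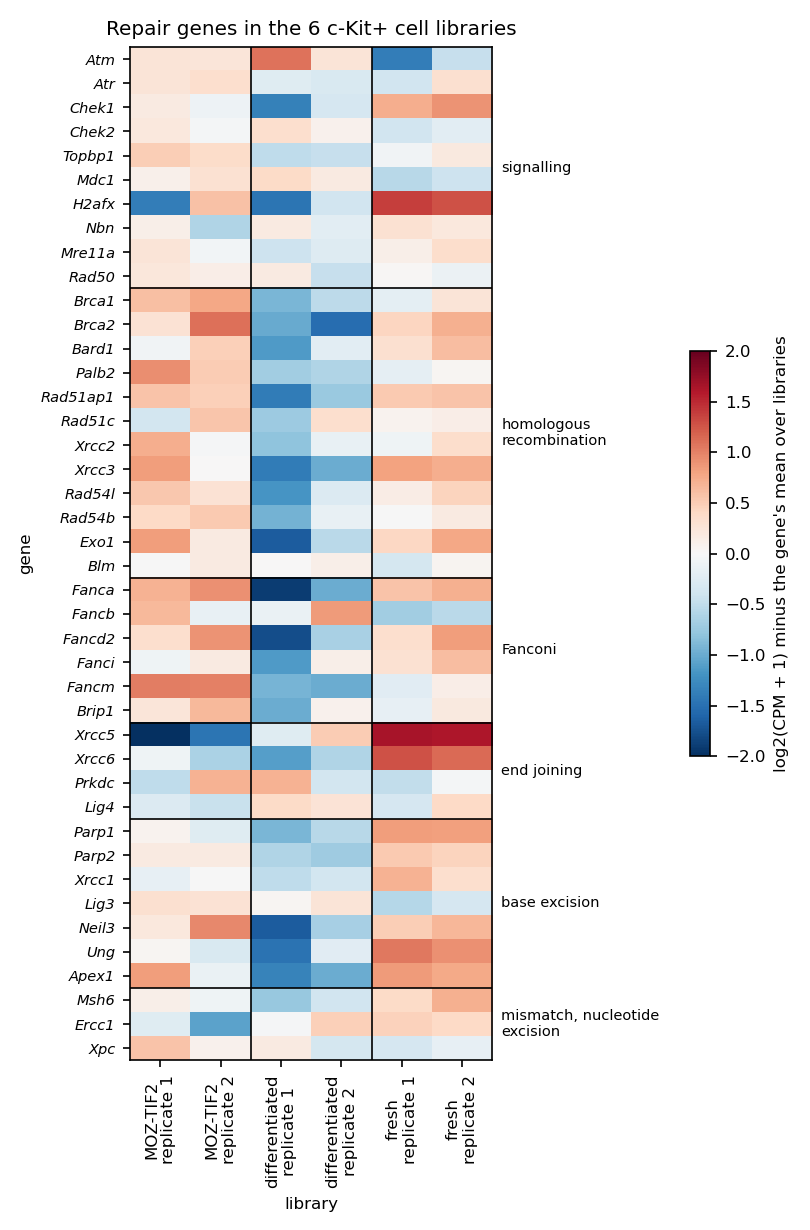
Level of each of the 42 members (rows, grouped by role) in the 2 MOZ-TIF2, 2 differentiated and 2 fresh libraries (columns). Colour is log2(CPM + 1) minus the gene's mean over the 6 libraries. The differentiated columns are low for most genes of homologous recombination and of base excision repair, and Xrcc5 is lowest in MOZ-TIF2 cells, at 2.13 and 3.79 CPM.

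Among the signalling genes, H2afx, the histone phosphorylated at breaks and a known substrate of EYA phosphatases, had 35.4 and 141 CPM in MOZ-TIF2 cells, 33.4 and 71.8 CPM in differentiated cells and 245 and 227 CPM in fresh cells. It was lower in differentiated than in fresh cells (log2 difference -2.17, SE 0.68, adjusted p = 0.047). Its difference between MOZ-TIF2 and fresh cells (-1.42, adjusted p = 0.168) did not pass, and the MOZ-TIF2 replicates lay far apart. Human H2AX is transcribed into a polyadenylated and a non-polyadenylated RNA, and these poly(A) libraries hold the polyadenylated kind. Atm, the kinase that answers strand breaks, had 31.9 and 31.6 CPM in MOZ-TIF2 cells, 57.6 and 31.9 CPM in differentiated cells and 9.59 and 18.9 CPM in fresh cells. It rose 3.13-fold in differentiated against fresh cells (log2 1.65, adjusted p = 0.0249), and all 4 cultured libraries lay above both fresh ones. Chek1, the checkpoint kinase downstream of ATR, had 29.7 and 24.2 CPM in MOZ-TIF2 cells, 9.65 and 20.5 CPM in differentiated cells and 43.9 and 49.8 CPM in fresh cells. Chek1 fell in differentiated against fresh cells (-1.63, adjusted p = 0.019), and its MOZ-TIF2 values lay between the other groups without a call. Mdc1, the reader of phosphorylated H2AX, had 103 and 118 CPM in MOZ-TIF2 cells, 125 and 109 CPM in differentiated cells and 64.7 and 71.1 CPM in fresh cells. Mdc1 was higher than in fresh cells in MOZ-TIF2 cells (0.70, adjusted p = 0.0494) and in differentiated cells (0.78, adjusted p = 0.0244). Topbp1, which activates ATR, rose in MOZ-TIF2 against differentiated cells with 251 and 231 CPM against 125 and 129 CPM (0.92, adjusted p = 0.0203).

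All 12 homologous recombination genes had a positive difference in MOZ-TIF2 against differentiated cells, with a median of 1.27, and 6 of them were called. Brca2, a central mediator of homologous recombination, had 29.5 and 52.7 CPM in MOZ-TIF2 cells, 11.5 and 7.74 CPM in differentiated cells and 32.6 and 39.9 CPM in fresh cells. It rose 4.27-fold in MOZ-TIF2 against differentiated cells (log2 2.10, SE 0.37, adjusted p = 0.00995), while the MOZ-TIF2 and fresh ranges overlapped. Xrcc3, a homologous recombination factor, had 15.1 and 8.11 CPM in MOZ-TIF2 cells, 2.44 and 3.53 CPM in differentiated cells and 14.8 and 14.0 CPM in fresh cells. Xrcc3 was higher in MOZ-TIF2 than in differentiated cells (1.96, adjusted p = 0.0202) and lower in differentiated than in fresh cells (-2.27, adjusted p = 0.011). Rad51ap1, a DNA-binding accessory factor of recombination, had 40.3 and 37.8 CPM in MOZ-TIF2 cells, 9.55 and 15.6 CPM in differentiated cells and 39.1 and 40.5 CPM in fresh cells (1.63 in MOZ-TIF2 against differentiated cells, adjusted p = 0.00933). The differentiated values were the low ones, and the other groups overlapped. Brca1, which directs breaks to recombination, had 64.9 and 73.4 CPM in MOZ-TIF2 cells, 22.1 and 29.1 CPM in differentiated cells and 36.9 and 51.0 CPM in fresh cells. Its groups did not overlap, and it was called higher in MOZ-TIF2 than in differentiated cells (1.43, adjusted p = 0.01) but not higher than in fresh cells (0.65, adjusted p = 0.107). Palb2, which links BRCA1 to BRCA2, and Exo1, a nuclease that resects breaks, also rose in MOZ-TIF2 against differentiated cells, by log2 1.495 and 1.61. In differentiated against fresh cells 5 of the 12 fell and none rose (median -0.88).

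Fanconi genes were also low in differentiated cells, with 3 of 6 called in MOZ-TIF2 against differentiated cells (median 1.34). Fanca, a subunit of the Fanconi core complex, had 35.7 and 41.6 CPM in MOZ-TIF2 cells, 5.06 and 10.4 CPM in differentiated cells and 32.8 and 36.2 CPM in fresh cells. It rose 4.98-fold in MOZ-TIF2 against differentiated cells (log2 2.32, SE 0.37, adjusted p = 0.00755). Fancm, the translocase that brings the core complex to DNA, had 31.1 and 30.7 CPM in MOZ-TIF2 cells, 7.31 and 6.91 CPM in differentiated cells and 12.5 and 16.2 CPM in fresh cells. Fancm rose in MOZ-TIF2 cells against both, by 2.12 against differentiated (adjusted p = 0.00312) and 1.103 against fresh cells (adjusted p = 0.0287), and fell in differentiated against fresh cells (-1.01). Fancd2, the protein the core complex ubiquitinates, had 31.8 and 47.6 CPM in MOZ-TIF2 cells, 6.59 and 15.6 CPM in differentiated cells and 31.9 and 45.2 CPM in fresh cells, and was called in MOZ-TIF2 against differentiated cells (1.84, adjusted p = 0.0304). Its MOZ-TIF2 and fresh values overlapped.

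Of the 4 end joining genes, 1 was called in MOZ-TIF2 against differentiated cells, and that gene, Xrcc5, was lower. Xrcc5, the larger subunit of the Ku ring that holds broken ends, had 2.13 and 3.79 CPM in MOZ-TIF2 cells, 10.1 and 17.8 CPM in differentiated cells and 40.4 and 39.2 CPM in fresh cells. It was 13.4-fold lower in MOZ-TIF2 than in fresh cells (log2 difference -3.75, SE 0.44, adjusted p = 0.00454), and it was the 1 member called lower in MOZ-TIF2 than in differentiated cells (-2.24, adjusted p = 0.0115). Xrcc5 was also called lower in differentiated than in fresh cells (-1.51, adjusted p = 0.0276). Xrcc6, the smaller Ku subunit, had 66.2 and 45.2 CPM in MOZ-TIF2 cells, 32.5 and 46.3 CPM in differentiated cells and 172 and 157 CPM in fresh cells. Xrcc6 fell against fresh cells in MOZ-TIF2 cells (-1.56, adjusted p = 0.0151) and in differentiated cells (-2.06, adjusted p = 0.00433), and the cultured groups overlapped. Prkdc, the kinase that Ku recruits, had 25.4 and 59.6 CPM in MOZ-TIF2 cells, 59.6 and 27.9 CPM in differentiated cells and 25.7 and 35.6 CPM in fresh cells, with every group overlapping and no call.

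Base excision and single-strand break genes fell most often in differentiated against fresh cells, with 6 of 7 lower, 1 higher and a median of -1.56. Apex1, the endonuclease that cuts at sites without a base, had 105 and 53.1 CPM in MOZ-TIF2 cells, 22.5 and 28.6 CPM in differentiated cells and 106 and 98.7 CPM in fresh cells. It rose 3.09-fold in MOZ-TIF2 against differentiated cells (adjusted p = 0.0186). Ung, which removes uracil, had 19.3 and 15.1 CPM in MOZ-TIF2 cells, 6.12 and 15.9 CPM in differentiated cells and 39.98 and 36.1 CPM in fresh cells, and only its fall in differentiated against fresh cells was called (-1.79). Neil3, a glycosylase of replicating cells, had 22.5 and 38.4 CPM in MOZ-TIF2 cells, 5.398 and 11.9 CPM in differentiated cells and 27.7 and 31.3 CPM in fresh cells (1.81 in MOZ-TIF2 against differentiated cells, adjusted p = 0.0294). Parp1, the sensor of strand breaks that builds poly(ADP-ribose), had 190 and 154 CPM in MOZ-TIF2 cells, 95.1 and 123 CPM in differentiated cells and 322 and 319 CPM in fresh cells. Parp1 fell against fresh cells in MOZ-TIF2 cells (-0.90, adjusted p = 0.0391) and in differentiated cells (-1.56, adjusted p = 0.00542). Lig3, the ligase that seals single-strand nicks, was the 1 gene of this role that was called higher than in fresh cells, with 96.2 and 94.2 CPM in MOZ-TIF2 cells, 79.4 and 92.3 CPM in differentiated cells and 51.6 and 61.0 CPM in fresh cells (0.76 and 0.61, adjusted p = 0.0394 and 0.0499).

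Other lists give the setting of these values. Of 71 other repair genes, 19 rose and 2 fell in MOZ-TIF2 against differentiated cells (median 0.42), and 4 rose and 25 fell in differentiated against fresh cells (median -0.51). The polymerase gene Polq, of another end joining pathway, was among the genes that moved, with log2 2.30 in MOZ-TIF2 against differentiated cells. Of 24 DNA replication genes, 7 rose in MOZ-TIF2 against differentiated cells (median 0.99) and 19 fell in differentiated against fresh cells (median -1.70). Their summed level was 2968 and 3216 CPM in MOZ-TIF2 cells, 1109 and 2262 CPM in differentiated cells and 4781 and 5298 CPM in fresh cells. Of 24 mitosis genes, 6 rose in MOZ-TIF2 against differentiated cells and 7 fell in differentiated against fresh cells. Markers of other cells moved further. In MOZ-TIF2 against fresh cells 9 of 10 erythroid markers were lower (median -14.1), as were all 9 B-lymphoid (-11.3), all 6 megakaryocyte (-7.76), 5 of 8 monocyte and macrophage and 3 of 8 late neutrophil markers. The erythroid sum was 333 and 429 CPM in MOZ-TIF2 cells, 127 and 175 CPM in differentiated cells and 4719 and 6689 CPM in fresh cells, and the late neutrophil sum was 1042 to 5421 CPM, 83.3 to 153 CPM and 20850 to 22720 CPM in these groups. In differentiated against fresh cells all 10 erythroid, all 9 B-lymphoid and 7 of 8 late neutrophil markers were lower, and 9 of 10 mast cell markers were higher (median 8.88). The part of these cells and of replication in the repair values was not tested.

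With 2 libraries per group, single libraries decided many calls. In MOZ-TIF2 against fresh cells, called members numbered 1 without either fresh library (2.38%, against 2.31% and 2.79% of all genes) and 3 without either MOZ-TIF2 library (7.14%, against 20.1% and 16.1%), and Xrcc5 was the 1 call kept under every setting tried. In MOZ-TIF2 against differentiated cells they numbered 5 without differentiated replicate 1 (11.9%, against 17.4% of all genes) and 6 without either fresh library (14.3%, against 15.4% and 14.9%), and Fanca, Fancm, Brca2, Rad51ap1 and Xrcc5 were kept throughout. In differentiated against fresh cells they numbered 1 without either fresh library (2.38%, against 7.78% and 9.61% of all genes) and 8 without differentiated replicate 1 (19.0%, against 22.7%), and Xrcc6 was kept throughout.

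In the lines, repair RNA was lower in benzarone than in DMSO in EYA1+HOXA9 cells for 15 of the 42 members, 7 of them homologous recombination genes, and no member was called in HOXA9 cells. With the 1 member that rose, 16 were called in EYA1+HOXA9 cells (38.1%), against 29.4% of all genes tested. The median difference was -0.37 for the members and 0.01 for all genes. In HOXA9 cells 0 of the 42 were called, against 0% of all genes, and the members' differences ranged between -0.15 and 0.29 with a median of -0.05. There 232 genes, none a member, had an unadjusted p under 0.05 in edgeR. DESeq2 called 14 genes, and edgeR with the replicate number as a block called 6, none of them a member. The main edgeR fit did not pair same-numbered HOXA9 libraries, which deviated together, so its 0 calls are those of an unpaired test. The difference between these benzarone effects was called for 4 members (9.52%), all more negative in EYA1+HOXA9 cells, against 7.54% of all genes, with a median of -0.33 for members and 0.01 for all genes.

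**Figure D2:**
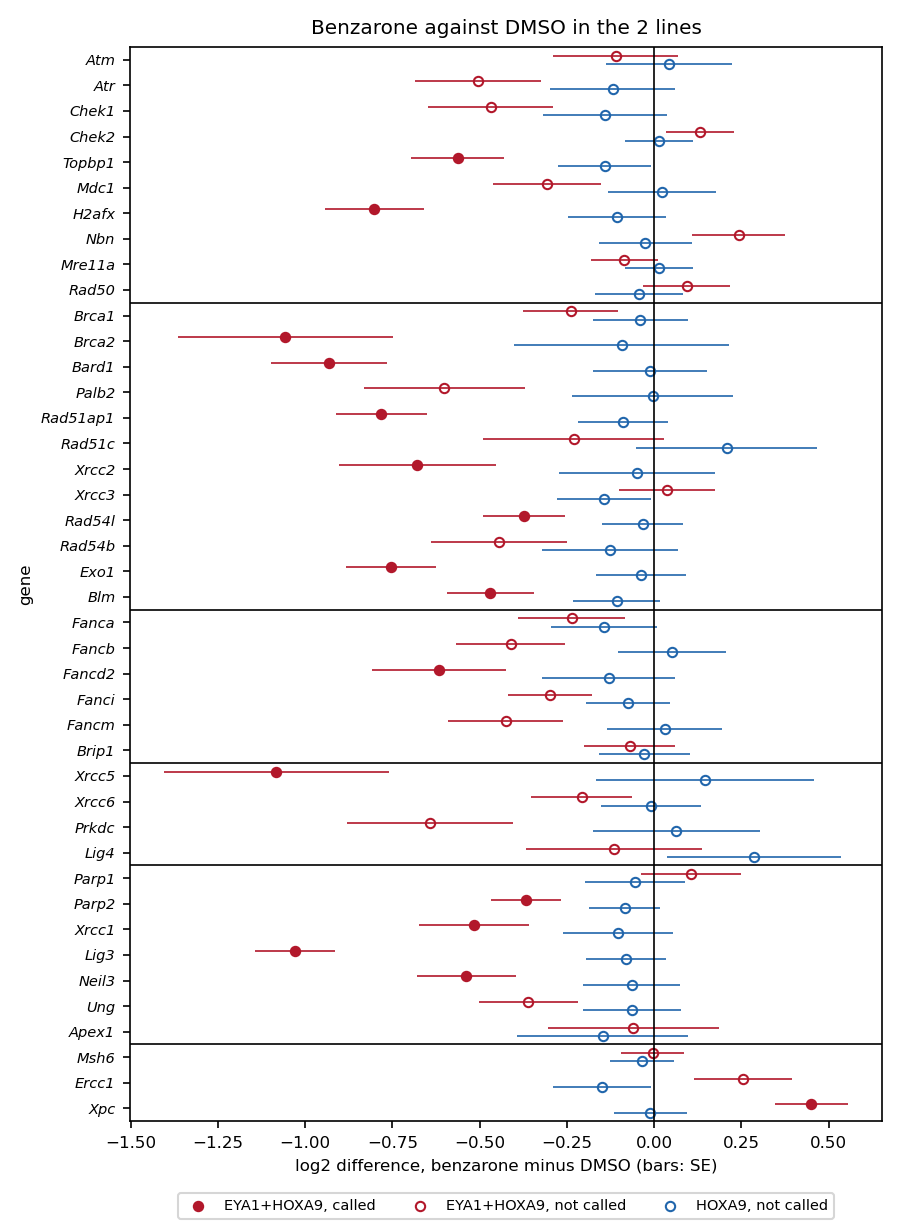
Log2 difference of benzarone against DMSO for the 42 members in EYA1+HOXA9 cells (red) and in HOXA9 cells (blue), with SE bars and filled points for adjusted p under 0.05. The red points reach -1.08 for Xrcc5, the 1 filled point above 0 is Xpc, and no blue point is filled.

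Lig3 had 60.6, 63.2 and 56.9 CPM in benzarone and 127, 114 and 128 CPM in DMSO in EYA1+HOXA9 cells, and 55.9, 73.9 and 62.7 CPM in benzarone and 64.7, 74.1 and 64.8 CPM in DMSO in HOXA9 cells. The DMSO libraries of EYA1+HOXA9 cells were the high ones, and the benzarone libraries of that line lay within the range of the HOXA9 ones. Lig3 fell 2.04-fold in EYA1+HOXA9 cells (log2 -1.03, SE 0.12, adjusted p = 0.000133), and the effect differed between the lines by -0.95 (SE 0.16, adjusted p = 0.00677). Bard1, the partner of BRCA1, had 11.97, 10.7 and 12.02 CPM in benzarone and 17.2, 22.8 and 26.3 CPM in DMSO in EYA1+HOXA9 cells, and 17.3, 18.9 and 20.9 CPM in benzarone and 17.4, 17.9 and 22.2 CPM in DMSO in HOXA9 cells. The benzarone libraries of EYA1+HOXA9 cells lay below all 9 others (-0.93, SE 0.17, adjusted p = 0.00156; difference between lines -0.92, adjusted p = 0.0334).

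Rad51ap1 had 21.6, 26.4 and 31.0 CPM in benzarone and 41.4, 45.6 and 48.6 CPM in DMSO in EYA1+HOXA9 cells, and 42.1, 39.1 and 41.5 CPM in benzarone and 40.2, 44.0 and 46.3 CPM in DMSO in HOXA9 cells. Again the benzarone libraries of EYA1+HOXA9 cells stood below all others (-0.78, SE 0.13, adjusted p = 0.00107; difference between lines -0.69, adjusted p = 0.0394). Exo1 had 23.0, 25.7 and 29.0 CPM in benzarone and 49.1, 40.2 and 41.7 CPM in DMSO in EYA1+HOXA9 cells, and 29.1, 35.02 and 36.2 CPM in benzarone and 32.1, 34.3 and 36.7 CPM in DMSO in HOXA9 cells. Its DMSO libraries in EYA1+HOXA9 cells were above all others, and its benzarone libraries below them (-0.75, SE 0.13, adjusted p = 0.00128; difference between lines -0.72, adjusted p = 0.0345).

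H2afx had 40.1, 37.0 and 38.4 CPM in benzarone and 49.6, 73.9 and 77.9 CPM in DMSO in EYA1+HOXA9 cells, and 56.7, 58.7 and 55.6 CPM in benzarone and 61.5, 60.7 and 61.8 CPM in DMSO in HOXA9 cells. In each line the benzarone libraries lay below the DMSO ones. H2afx fell 1.74-fold in EYA1+HOXA9 cells (log2 -0.80, SE 0.14, adjusted p = 0.0015), and its difference in HOXA9 cells was -0.11 without a call. The difference between the lines was -0.70 and did not pass (adjusted p = 0.0532).

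Xrcc5 and Brca2 varied more. Xrcc5 had 4.94, 2.80 and 1.83 CPM in benzarone and 8.67, 6.12 and 5.54 CPM in DMSO in EYA1+HOXA9 cells, and 10.4, 6.02 and 7.99 CPM in benzarone and 7.35, 7.19 and 7.47 CPM in DMSO in HOXA9 cells (-1.08 in EYA1+HOXA9 cells, SE 0.32, adjusted p = 0.0245). Brca2 had 23.4, 30.2 and 21.4 CPM in benzarone and 28.6, 58.8 and 68.5 CPM in DMSO in EYA1+HOXA9 cells, and 16.8, 35.9 and 29.1 CPM in benzarone and 26.9, 29.1 and 31.3 CPM in DMSO in HOXA9 cells. Brca2 passed the test in EYA1+HOXA9 cells (-1.06, SE 0.31, adjusted p = 0.0224) although benzarone and DMSO libraries overlapped. Xrcc2, another homologous recombination factor, had 11.9, 9.20 and 14.3 CPM in benzarone and 20.1, 19.0 and 17.6 CPM in DMSO in EYA1+HOXA9 cells (-0.68, adjusted p = 0.0391), with no overlap. The single member that rose was Xpc, which recognises bulky lesions for nucleotide excision repair. It had 104, 105 and 94.2 CPM in benzarone and 71.1, 77.2 and 73.6 CPM in DMSO in EYA1+HOXA9 cells, and 114, 104 and 95 CPM in benzarone and 112, 110 and 94.5 CPM in DMSO in HOXA9 cells (0.45, SE 0.10, adjusted p = 0.00709). The DMSO libraries of EYA1+HOXA9 cells stood below the other 9.

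**Figure D3:**
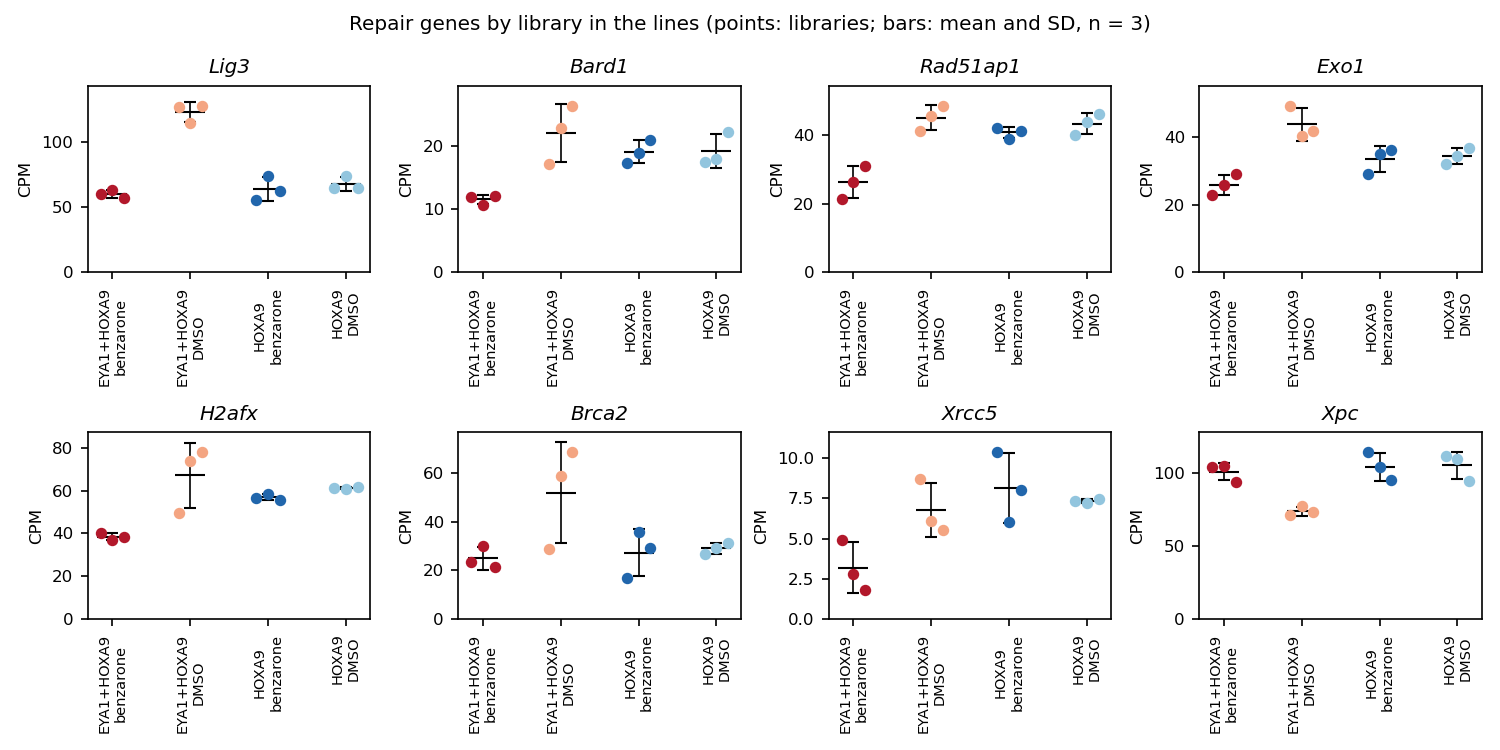
CPM of 8 members in each of the 12 line libraries, with mean and SD (n = 3). Groups run EYA1+HOXA9 in benzarone, EYA1+HOXA9 in DMSO, HOXA9 in benzarone and HOXA9 in DMSO. Bard1 and Rad51ap1 are lowest in the first group, Lig3 and Exo1 are highest in the second group, and Brca2 overlaps between all groups.

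By role, 7 of 12 homologous recombination genes fell in EYA1+HOXA9 cells in benzarone (median -0.54), as did 4 of 7 base excision and single-strand break genes, 2 of 10 signalling genes, 1 of 6 Fanconi genes and 1 of 4 end joining genes. Topbp1 had 150, 177 and 182 CPM in benzarone and 256, 236 and 259 CPM in DMSO in EYA1+HOXA9 cells, without overlap (-0.56, SE 0.13, adjusted p = 0.00793). The central kinases were not called. In EYA1+HOXA9 cells Atm had 32.7, 35.1 and 28.1 CPM in benzarone and 26.5, 37.5 and 39.5 CPM in DMSO (-0.11). Chek1 had 18.7, 20.6 and 27.9 CPM in benzarone and 26.7, 32.5 and 33.8 CPM in DMSO (-0.47, adjusted p = 0.0669). Prkdc had 24.8, 30.2 and 17.96 CPM in benzarone and 25.2, 41.3 and 47.5 CPM in DMSO (-0.64, adjusted p = 0.0612). Benzarone and DMSO libraries overlapped for each of these kinases. Brca1 had 49.5, 55.8 and 49.0 CPM in benzarone and 53.5, 62.0 and 66.6 CPM in DMSO (-0.24). Parp1 had 153, 176 and 183 CPM in benzarone and 189, 147 and 140 CPM in DMSO (0.11), and neither gene was called. In HOXA9 cells the differences of Brca1, H2afx, Atm, Chek1, Parp1 and Prkdc lay between -0.14 and 0.06.

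Of the 71 other repair genes, 4 rose and 23 fell in EYA1+HOXA9 cells in benzarone (median -0.23). The glycosylase gene Mutyh fell by 1.28 and the helicase gene Recql4 by 0.96 on the log2 scale, and Parp3 rose by 0.73. Of 24 replication genes 1 rose and 5 fell (median -0.23), and of 24 mitosis genes 2 rose and 1 fell (median 0.06). Summed replication RNA was 2432 to 3102 CPM in benzarone and 3171 to 3232 CPM in DMSO. Monocyte and macrophage markers also moved, with 6 of 7 higher and 1 lower (median 1.75) and a summed level of 752 to 1693 CPM in benzarone and 260 to 350 CPM in DMSO. In HOXA9 cells their sum was 304 to 414 CPM in benzarone and 212 to 289 CPM in DMSO. Granulocyte progenitor markers summed to 5632 to 7860 CPM in benzarone and 8294 to 8586 CPM in DMSO in EYA1+HOXA9 cells. The part of these markers, or of the Eya1 and Hoxa9 levels given above, in the repair values was not tested.

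The number of members called in EYA1+HOXA9 cells was 9 without benzarone replicate 1 or DMSO replicate 3 (21.4%, against 19.9% and 17.2% of all genes), and Lig3, Bard1, Rad51ap1, Exo1, H2afx, Topbp1 and Xpc were called under every setting tried. The differences between the lines for Bard1, Exo1 and Rad51ap1 each lost their call under at least 1 setting, and that of Lig3 kept it, with a largest adjusted p of 0.0247. Called interactions numbered 1 (2.38%) without any single one of EYA1+HOXA9 benzarone replicate 2, EYA1+HOXA9 DMSO replicate 3, HOXA9 benzarone replicate 2 or 3 and HOXA9 DMSO replicate 1 or 2. In these fits 2.98% to 4.87% of all genes were called. Without EYA1+HOXA9 benzarone replicate 1 or DMSO replicate 2 they numbered 2 (4.76%), against 4.18% and 6.39% of all genes.

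Between the lines, few repair genes set EYA1+HOXA9 cells apart from HOXA9 cells in DMSO, and several were lower in benzarone. In DMSO 5 members were called (11.9%), 1 higher and 4 lower, against 22.9% of all genes. Lig3 was the higher one (0.86, SE 0.12, adjusted p = 0.000258), with the values given above. The lower ones were Xrcc3, Xpc, Nbn and Chek2. Nbn, a subunit of the complex that detects broken ends, had 31.5, 28.6 and 28.4 CPM in EYA1+HOXA9 cells and 43.4, 43.1 and 38.6 CPM in HOXA9 cells (-0.50, adjusted p = 0.0187). Chek2, the kinase downstream of ATM, had 35.6, 32.0 and 34.6 CPM in EYA1+HOXA9 cells and 40.2, 44.4 and 44.3 CPM in HOXA9 cells (-0.34, adjusted p = 0.0277). Xrcc3 had 9.68, 9.55 and 8.42 CPM in EYA1+HOXA9 cells and 14.0, 12.6 and 13.2 CPM in HOXA9 cells (-0.53, adjusted p = 0.0164). None of these overlapped between the lines. The count of called members was 10 without EYA1+HOXA9 DMSO replicate 1 (23.8%, against 25.4% of all genes) and 8 without HOXA9 benzarone replicate 1 (19.0%, against 25.0%). It was 3 without EYA1+HOXA9 DMSO replicate 2 or HOXA9 DMSO replicate 1 or 2 (7.14%, against 14.7%, 14.5% and 13.5%). Without EYA1+HOXA9 DMSO replicate 3 it was 2 (4.76%, against 12.7%). Lig3 and Xpc were kept throughout.

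In benzarone 8 members were lower in EYA1+HOXA9 than in HOXA9 cells and none was higher (19%), against 25.3% of all genes, with a median of -0.23. They were Xrcc5 (-1.34, adjusted p = 0.00906), Fancb (-0.77, adjusted p = 0.0034), Bard1 (-0.72, adjusted p = 0.00711), Neil3 (-0.66, adjusted p = 0.00462), Rad51ap1 (-0.64, adjusted p = 0.0035), H2afx (-0.57, adjusted p = 0.011), Rad54l (-0.50) and Fanca (-0.46). Fancb, another subunit of the Fanconi core complex, had 7.12, 7.41 and 9.16 CPM in EYA1+HOXA9 cells and 15.7, 12 and 12.6 CPM in HOXA9 cells in benzarone, without overlap. All but Fanca were called under every setting tried. Other lists also differed between the lines. In benzarone 9 of 24 replication genes, 9 of 24 mitosis genes, 7 of 8 late neutrophil markers and 6 of 7 granulocyte progenitor markers were lower in EYA1+HOXA9 cells, and 5 of 7 monocyte and macrophage markers were higher. In DMSO 1 of 24 replication genes, 12 of 24 mitosis genes and 5 of 8 late neutrophil markers were lower. The part of these lists in the repair values was not tested.

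Single-cell RNA came from 826 benzarone and 883 DMSO cells of day 1, 829 benzarone cells of day 3, and 1496 benzarone and 1662 DMSO cells of day 5. The median cell held 44762 UMIs in benzarone and 42565 in DMSO on day 1, 44743 UMIs on day 3, and 19763 in benzarone and 24576 in DMSO on day 5. UMIs were summed over the cells of a condition, intervals cover counting error at 95% only, and no test across samples was possible. On days 1 and 3 each condition had its own barcode suffix, so library and condition cannot be told apart. Within the table of days 1 and 3, 3 barcodes occurred more than once, and 9 occurred in both tables. A gene was taken as past the rule at a ratio of 1.5-fold or more with at least 100 UMIs over both conditions.

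Repair RNA was nearly level on day 1, slightly lower on day 3 and much lower on day 5 of benzarone. On day 1, 0 of 39 members were past 1.5-fold, against 1.74% of all genes, and the median ratio to DMSO was 0.977. Day 3 of benzarone against its day 1 had 1 of 39 past the rule, against 5.77% of all genes, with a median ratio of 0.852 and 38 of 39 ratios below 1. That member was Fancb (0.61, interval 0.467 to 0.803). On day 5, 29 of 41 members were lower in benzarone than in DMSO by 1.5-fold or more and none was higher, against 51.9% of all genes, of which 2435 of 10261 were higher and 2889 lower. All 41 ratios were below 1, with a median of 0.553. Lig4, the ligase of end joining, had 57 UMIs in benzarone and 41 in DMSO, too few for the minimum, and its ratio was above 1 (1.78, interval 1.17 to 2.73). Day 3 has no DMSO sample, so its values are set against day 1.

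**Figure D4:**
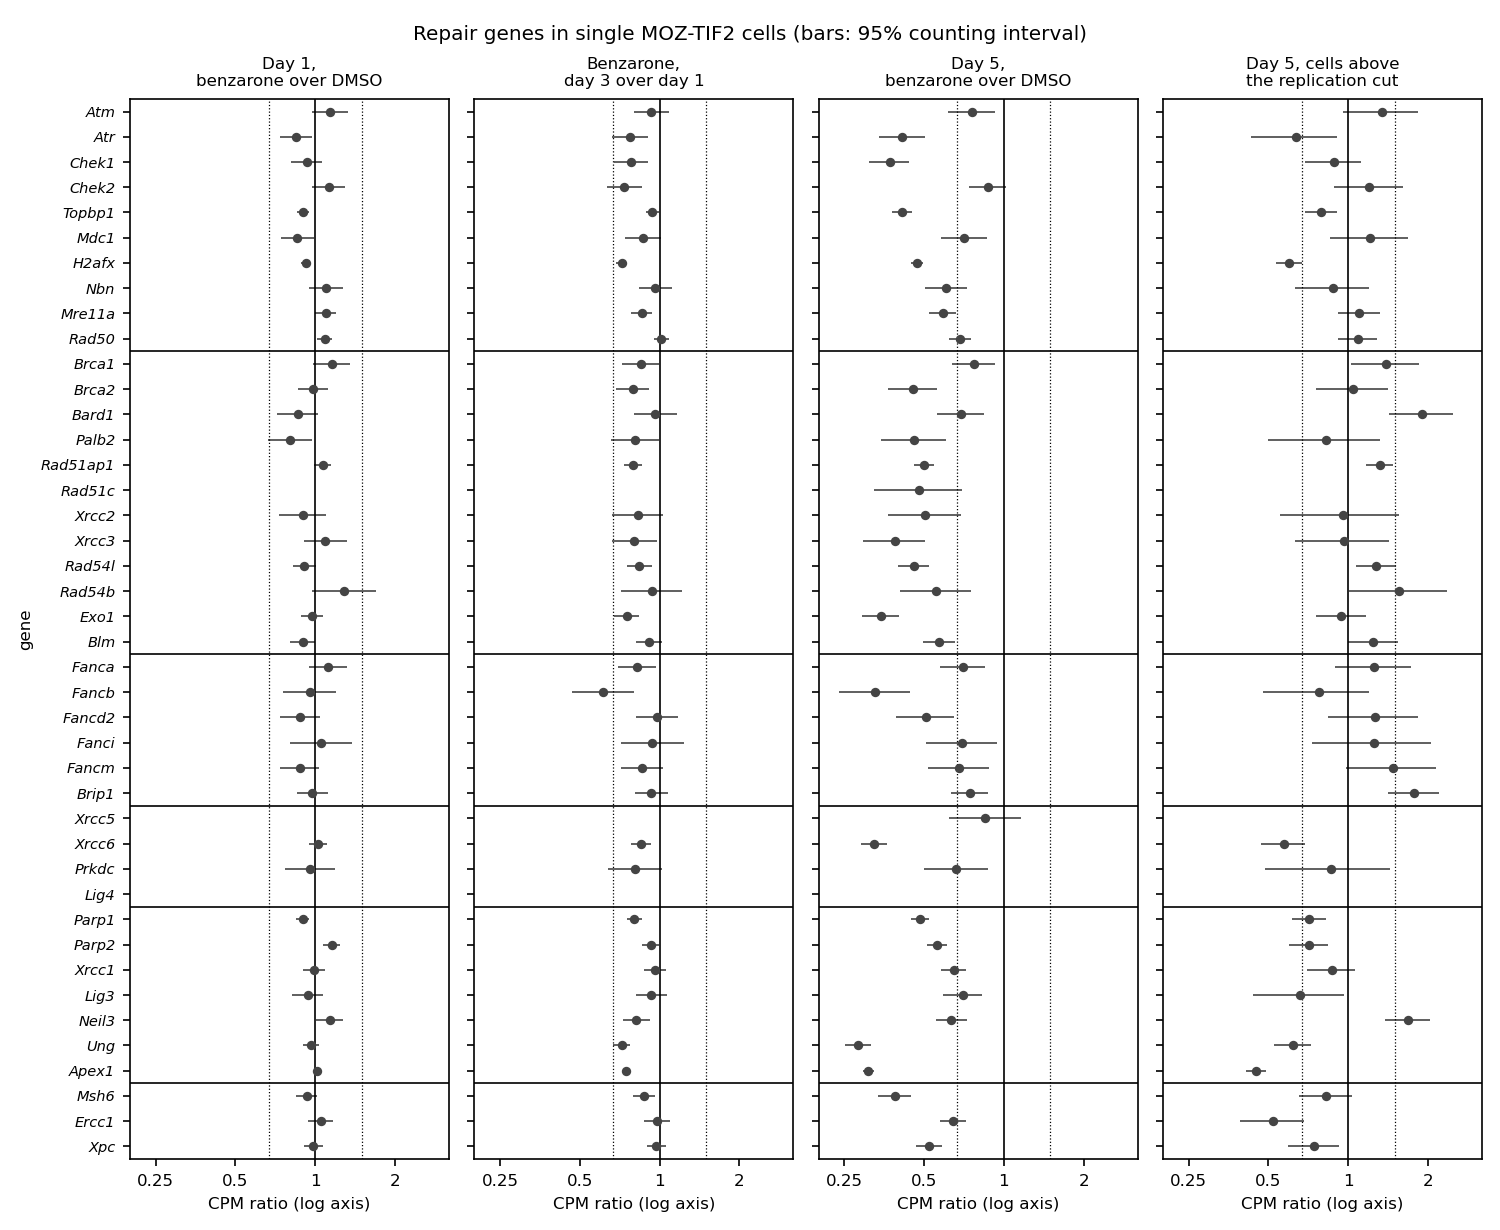
Ratio of CPM for each member, on a log axis, with the 95% counting interval, for benzarone against DMSO on day 1, benzarone on day 3 against day 1, and benzarone against DMSO on day 5 in all cells and in cells above the lower replication limit of the DMSO cells. Dotted lines mark 1.5-fold. Ratios gather at 1 on day 1, and all 41 lie below 1 in all cells of day 5.

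Ung and Apex1 had the lowest ratios of the 41 members on day 5. Ung was at 45.3 CPM in benzarone and 47.1 CPM in DMSO on day 1, at 32.6 CPM in benzarone on day 3, and at 11.6 CPM in benzarone and 41.3 CPM in DMSO on day 5 (ratio 0.281, interval 0.251 to 0.315). Apex1 was at 250 and 245 CPM in benzarone and DMSO on day 1, at 187.4 CPM in benzarone on day 3, and at 70.9 and 230.1 CPM in benzarone and DMSO on day 5 (0.308, interval 0.294 to 0.322). H2afx was at 105 CPM in benzarone and 113 CPM in DMSO on day 1, at 75.7 CPM in benzarone on day 3, and at 54.6 CPM in benzarone and 116 CPM in DMSO on day 5 (0.47, interval 0.445 to 0.496). CPM is over the genes each table lists, so levels of day 5 are not set against those of days 1 and 3. Benzarone was near DMSO for these genes on day 1 and far below it on day 5.

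The other low members of day 5 included Xrcc6 with 12.4 CPM in benzarone and 38.4 CPM in DMSO (0.324, interval 0.289 to 0.361), Exo1 (0.343, interval 0.293 to 0.400), Chek1 with 5.28 and 14.3 CPM in benzarone and DMSO (0.371, interval 0.311 to 0.440), and Msh6, the mismatch sensor (0.387). Parp1 had 25.9 CPM in benzarone and 53.6 CPM in DMSO (0.483). Atm had 4.67 CPM in benzarone and 6.17 CPM in DMSO (0.757). Brca1 had 5.69 CPM in benzarone and 7.37 CPM in DMSO (0.771, interval 0.639 to 0.929). Prkdc had 2.503 CPM in benzarone and 3.78 CPM in DMSO (0.662), just past the rule. Chek2 was nearest to level (0.871, interval 0.741 to 1.021). By role, 10 of 12 homologous recombination genes (median 0.49), 6 of 7 base excision and single-strand break genes (0.558), all 3 mismatch and nucleotide excision genes, 6 of 10 signalling genes, 2 of 6 Fanconi genes and 2 of 3 end joining genes were past the rule.

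Lists from the same cells moved as widely on day 5. Of 24 replication genes 23 were lower by the rule and none higher (median ratio 0.45), and of 24 mitosis genes 16 were lower (0.525). Of 68 other repair genes 36 were lower and 3 higher (0.634). Monocyte and macrophage markers were higher for 7 of 7 (sum 743 CPM in benzarone and 105 CPM in DMSO), late neutrophil markers for 8 of 8, and granulocyte progenitor markers were lower for 6 of 7 (median 0.202).

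Because replication RNA moved with the repair genes, members were also compared in cells with replication RNA above a limit, an analysis added after the data were seen. The limit, in summed CPM of the 24 replication genes, left 66.7% of the control cells above it. On day 5, 212 of the benzarone cells (14.2%) and 1108 of the DMSO cells were above it. In these cells the members' median ratio was 0.953, with 21 of 39 below 1 and 11 past the rule, 4 higher and 7 lower, against 39.0% of all genes. Bard1 (1.89, interval 1.42 to 2.49), Brip1, a helicase that binds BRCA1 (1.77, interval 1.42 to 2.20), Neil3 (1.68, interval 1.38 to 2.03) and Rad54b, a recombination motor protein (1.56), were higher in benzarone. Over all cells the ratio was 0.69 for Bard1, 0.743 for Brip1, 0.634 for Neil3 and 0.554 for Rad54b. Apex1 (0.449), Ercc1, a nuclease of nucleotide excision repair (0.522), Xrcc6 (0.572), H2afx (0.598, interval 0.532 to 0.670), Ung (0.619), Atr (0.634) and Lig3 (0.659) were lower. On day 3 against day 1, 421 cells (50.8%) and 551 cells (66.7%) were above the limit of the day 1 cells, and the median ratio there was 0.959.

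Within each condition, cells were also ranked by the replication sum and cut into 3 equal parts, and the highest part was set against the lowest. These are ranges of a continuous score and not cell types. Cells within 10% of a limit between parts made up 35.2% and 36.4% of the cells in benzarone and DMSO on day 1, 27.1% in benzarone on day 3, and 12.4% and 37.9% in benzarone and DMSO on day 5. The members' median ratio of the highest to the lowest part was 1.38 in benzarone and 1.496 in DMSO on day 1, 2.23 in benzarone on day 3, and 3.37 in benzarone and 1.32 in DMSO on day 5. The median over all genes lay between 0.993 and 1.13. The lower limit itself was 215 CPM in benzarone and 1497 CPM in DMSO on day 5, so the parts of these conditions span different ranges.

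**Figure D5:**
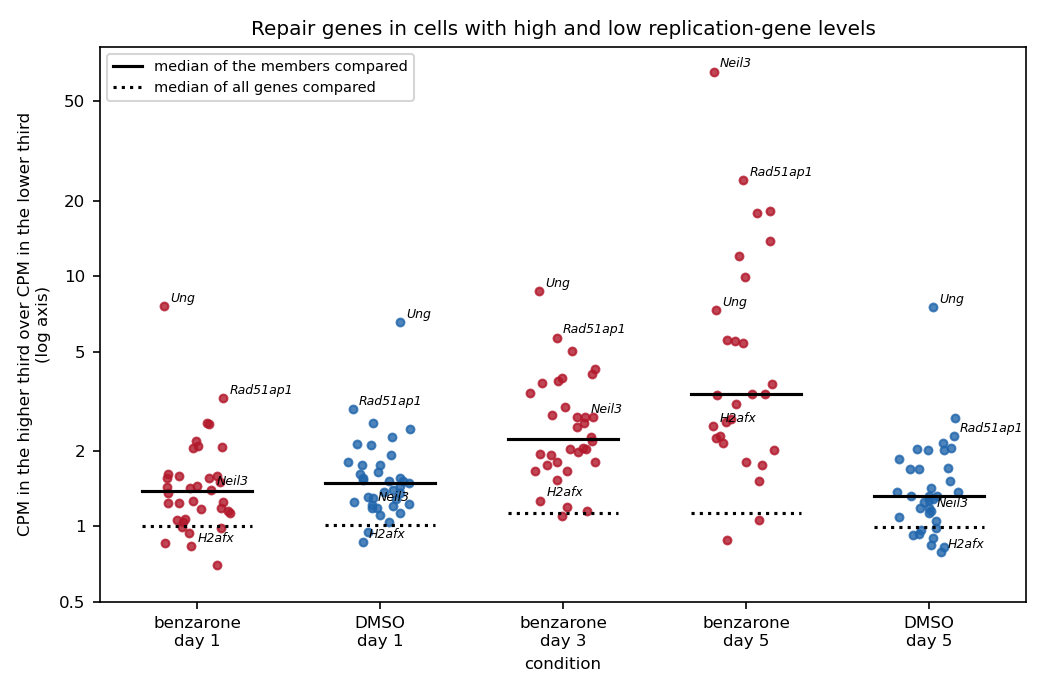
Ratio of CPM in the highest of 3 equal parts of the cells, ranked by replication RNA, to that in the lowest, for each member and condition. Solid lines mark the members' median and dotted lines the median over all genes, and the members' median is highest in benzarone on day 5, at 3.37.

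Ung was tied to the replication sum in every condition, with ratios of 7.60 in benzarone and 6.54 in DMSO on day 1, 8.73 in benzarone on day 3, and 7.32 in benzarone and 7.51 in DMSO on day 5. Rad51ap1 had 3.26 and 2.94 in benzarone and DMSO on day 1, 5.68 in benzarone on day 3, and 24.3 (interval 15.6 to 40) and 2.29 in benzarone and DMSO on day 5. Chek1 had 2.10 and 2.14 in benzarone and DMSO on day 1, 4.06 in benzarone on day 3, and 18.2 (interval 8.16 to 50.5) and 2.71 in benzarone and DMSO on day 5. Neil3 reached 65.7 in benzarone on day 5, with few UMIs in the lowest part and an interval of 22.2 to 321, and 1.16 in DMSO. The summed mitosis RNA of the highest and lowest parts was 1561 and 2210 CPM in benzarone and 1535 and 2102 CPM in DMSO on day 1, 1690 and 1148 CPM in benzarone on day 3, and 1949 and 210 CPM in benzarone and 1644 and 2459 CPM in DMSO on day 5. H2afx turned in the same conditions as this sum. Its ratio was below 1 in benzarone and DMSO on day 1 (0.834 and 0.863) and in DMSO on day 5 (0.791), and above 1 in benzarone on day 3 (1.27) and on day 5 (2.51, interval 2.19 to 2.89). Lig3 lay between 0.824 and 1.16 throughout, near 1 in every condition.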

How the data were processed

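Per the labels' protocols, bulk libraries were made from poly(A) RNA and kept strand. The deposited bulk values are estimated counts of each gene, made by the authors without normalization, and were rounded to whole numbers here. The single-cell tables hold UMI counts per gene and cell as deposited, over part of the genes. Salmon 0.13.0, Cell Ranger 3.0.0 and Bowtie2 are named in the submitters' processing notes without a role, and the peak caller is not given in the sources used here. The peak lists as deposited give positions on GRCm38 in steps of 50 bp with no score, and starts were read as counting from 0. The Ty1 antibody entries of the replicates differ in the labels.

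edgeR 4.0.16 (R 4.3.3) tested each bulk table separately with filterByExpr, TMM and the two-sided quasi-likelihood F test in 1 fit of all its groups, with Benjamini-Hochberg adjustment over all tested genes and a threshold of 0.05. The code was run on counts simulated with 1 fixed spread for all genes. There edgeR recovered 73 of 100 2-fold changes with the c-Kit design and 95 of 100 with the line design. Real libraries may vary more. Same-numbered HOXA9 libraries in benzarone and DMSO deviated together (correlations 0.279 to 0.55 in 3 pairs). The main fit held group only and did not pair them. The replicate block was shared by all groups of a table, and no fit paired the HOXA9 comparison alone. Alternatives were DESeq2 1.42.0, no filter, the compared groups alone, the replicate number as a block and leaving out each library. In single cells, UMIs were summed per condition, no cell was removed and no doublet caller was run. Poisson intervals are exact for levels and binomial for ratios. Alternatives thinned cells to 10000 UMIs or moved the UMI minimum. The members and lists were chosen with earlier results of these data known. Values per library are given for Brca1, H2afx, Atm, Chek1, Parp1, Prkdc and, per comparison, up to 8 called members each way with the largest difference among those of at least 5 CPM, with a few others added after their values were seen. Acetylated histone and input samples were not analysed here. Some members share sequence with a neighbour on the genome, such as Xrcc6 with Desi1, Fanca with Zfp276 and Lig3 with Rffl.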

Additional observations from a re-analysis of the deposited data

Results flagged for a closer look

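The effect of benzarone differed between the lines, in the edgeR test of the difference itself, for 4 of the 42 members (9.52%), against 7.54% of all genes tested. The effect in EYA1+HOXA9 cells minus that in HOXA9 cells was -0.95 on the log2 scale for Lig3 (adjusted p = 0.00677), -0.92 for Bard1 (adjusted p = 0.0334), -0.72 for Exo1 (adjusted p = 0.0345) and -0.69 for Rad51ap1 (adjusted p = 0.0394). In EYA1+HOXA9 cells benzarone was below DMSO in every library of these 4 genes. In HOXA9 cells the libraries of the treatments overlapped for each of them. With each of the 12 libraries left out in turn, the call was kept 12 times for Lig3, 4 times for Bard1, 4 times for Exo1 and 3 times for Rad51ap1.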

How the results depend on the processing

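No member called in bulk RNA changed sign under any setting run. In the next 3 sentences, brackets give the calls among all genes tested. Called members of MOZ-TIF2 against fresh cells numbered 6 (3602 of 15224), with 3 without the low-count filter (3685 of 22862) and 2 with the replicate block (2094 of 15224). For MOZ-TIF2 against differentiated cells there were 14 (4486 of 15224), and 9 when the compared groups were fitted alone (3061 of 14188). For EYA1+HOXA9 against HOXA9 cells in DMSO there were 5 (3061 of 13375), and 9 with DESeq2 (3711 of 15023). With 1 library left out at a time, the counts ranged over 1 to 6 (MOZ-TIF2 against fresh), 5 to 16 (MOZ-TIF2 against differentiated), 1 to 21 (differentiated against fresh), 2 to 10 (EYA1+HOXA9 against HOXA9 in DMSO), 7 to 11 (the same in benzarone), 9 to 20 (benzarone in EYA1+HOXA9), 0 to 0 (benzarone in HOXA9) and 1 to 5 (interaction). The share of all genes called moved as well. In the same order it ranged over 2.31 to 22.3%, 14.9 to 27.3% and 7.78 to 43.9% in the c-Kit table. In the lines it ranged over 12.7 to 25.4%, 16.2 to 26.2%, 17.2 to 31.2%, 0 to 0.00732% and 2.98 to 8.6%. Replicate numbers did not pair the samples outside benzarone against DMSO in HOXA9 cells, and same-numbered deviations of the other groups correlated at -0.25 to 0.17 in the lines and -0.08 to -0.01 in the c-Kit table. With the replicate block 13 members were called in MOZ-TIF2 against differentiated cells, with 3284 of 15224 genes tested. It called 18 in differentiated against fresh cells (4678 of 15224 genes) and 7 in EYA1+HOXA9 against HOXA9 cells in DMSO (3263 of 13375). Its counts were 12 for the same in benzarone, 20 for benzarone in EYA1+HOXA9 cells and 4 for the interaction. These counts were not set against all genes. For benzarone in HOXA9 cells, where the numbers paired the samples, it called 0 members and 6 genes, against 0 genes without it. Thinned to 10000 UMIs per cell, 1 of 34 members compared passed 1.5-fold on day 1, with 183 of 7774 genes. On day 3, 4 of 32 members passed, with 470 of 7675 genes. Unthinned, 0 of 39 passed on day 1 (164 of 9430 genes) and 1 of 39 on day 3 (545 of 9448 genes). In cells above the replication limit, a setting chosen after seeing the data, 0 of 39 passed on day 3 (301 of 9258 genes). On day 5, 29 of 41 passed in all cells (5324 of 10261 genes) and 11 of 39 in cells above the limit (3472 of 8895 genes). There 8 of the 29 turned to ratios above 1, with 1.05 for Brca2, 1.102 for Mre11a, 1.25 for Blm, 1.26 for Fancd2, 1.28 for Rad54l, 1.32 for Rad51ap1, 1.56 for Rad54b and 1.68 for Neil3. The counting interval, over 212 benzarone cells, included 1 for Brca2 (0.756 to 1.418), Mre11a (0.915 to 1.319), Blm (0.9999 to 1.539) and Fancd2 (0.841 to 1.837). It lay above 1 for Rad54l (1.066 to 1.522), Rad51ap1 (1.17 to 1.478), Rad54b (1.004 to 2.36) and Neil3 (1.379 to 2.033). Shared Ty1 peaks lay within 50 kb of 22 members (52.4%), against 35% of all listed protein-coding genes, and within 5 kb of 12 (28.6%), against 18.7%. That background includes genes that did not pass the low-count filter, whereas all members passed it. Beside tested genes the share within 5 kb was also 28.6%, so the members stood at the background. The share within 50 kb was not set against tested genes. The cause of these changes was not tested. Pairs of libraries limit the c-Kit calls, and members with few UMIs limit the single-cell ratios.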

Other observations

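Targets of p53, the transcription factor that DNA damage signalling activates, moved in several comparisons. Of 15 targets, 9 rose and 1 fell in differentiated against fresh cells (median log2 difference 1.98), where 40.7% of all genes were called. In MOZ-TIF2 against differentiated cells 7 fell (median -1.28), where 29.5% of all genes were called. Zmat3, an RNA-binding p53 target, was higher by log2 4.24 in differentiated than in fresh cells. In EYA1+HOXA9 cells 6 of 14 targets rose in benzarone and 3 fell (median 0.24), where 29.4% of all genes were called. The targets summed to 647 to 765 CPM in benzarone and 557 to 661 CPM in DMSO. Among them Plk2, a kinase (2.09), and Gdf15, a secreted stress factor (1.49), were both higher. In HOXA9 cells none of the targets was called, against 0% of all genes. There 12 of 14 had a positive difference (median 0.25). The targets' sum there was 936 to 1008 CPM in benzarone and 728 to 814 CPM in DMSO. In EYA1+HOXA9 against HOXA9 cells 4 of 14 fell in benzarone, where 25.3% of all genes were called. In DMSO 6 of 14 fell, where 22.9% of all genes were called, and none rose in either. In MOZ-TIF2 against fresh cells 3 of 15 rose and 3 fell, where 23.7% of all genes were called. In single MOZ-TIF2 cells on day 5, 9 of 15 targets were higher in benzarone by 1.5-fold or more and 1 was lower, with a summed level of 1619 CPM in benzarone and 696 CPM in DMSO. Of all genes, 51.9% were past 1.5-fold there. On day 3 against day 1 of benzarone, 8 of 14 were higher by 1.5-fold and 0 lower, against 5.77% of all genes, and all 14 ratios were above 1. On day 1, 1 of 14 was higher by 1.5-fold, against 1.74% of all genes, and 12 ratios to DMSO were above 1.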
